A study of Mus musculus with 8 samples.

Results

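Glucose uptake, glycolysis, the pentose phosphate pathway, glycogen turnover and the entry into gluconeogenesis were followed through 37 genes in mouse embryonic fibroblasts. The genes were chosen by their textbook role, with earlier results of these data known. Each was read from whichever of its count rows had the largest sum over the 8 labelled libraries. All 37 were found among the 23366 gene symbols of the count table, and 36 of them passed the filter on low counts that left 14418 genes for testing. The exception was Pygl, the liver form of glycogen phosphorylase. By role the members comprised 3 glucose transporters, 9 genes of upper glycolysis, 3 of the bifunctional enzymes that set fructose-2,6-bisphosphate, 6 of lower glycolysis, 7 of the pentose phosphate pathway, 2 of gluconeogenic entry and 7 of glycogen turnover.

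Glucose enters a fibroblast through facilitative transporters and is trapped by hexokinase as glucose-6-phosphate, which can go to glycolysis, the pentose phosphate pathway or glycogen. Upper glycolysis, paced by phosphofructokinase and its activator fructose-2,6-bisphosphate, spends ATP, and lower glycolysis regains it and yields pyruvate. The pentose phosphate pathway makes NADPH and ribose-5-phosphate, in an oxidative and a non-oxidative arm, and glycogen is the storage polymer of glucose.

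The cells, connective tissue cells explanted from embryos, were of the C57BL/6 strain at passages 3 to 5. RNA was sequenced from 4 groups of 2 libraries: wild-type (WT) cells at 0 h, WT cells after 12 h of glucose starvation, and cells labelled as knockouts of the histone demethylase gene Kdm3a at the same 0 h and 12 h. Fed cells had DMEM with 10% serum, and starved cells had DMEM lacking glucose with 10% dialyzed serum, so glucose loss, dialyzed serum, medium change and 12 h of time cannot be told apart, and starvation means all of them here. The design asked how the 2 genotypes differ with nutrients and under glucose starvation. The labels give neither the knockout allele nor how many embryos or cultures the libraries came from, and the p-values reflect only how far these libraries spread, which may be technical.

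Library totals ran from 38407520 to 53602289 counts. Replicates correlated across genes at r = 0.9976 to 0.9983 and libraries of different groups at 0.863 to 0.930, where genes are not independent replicates. Kdm3a stood at 56.1 and 56.4 counts per 1000000 (CPM) in fed WT and at 55.2 and 55.4 in fed KO-labelled libraries, a difference that was not called (log2 -0.02 ± 0.04 SE). Starved WT libraries had 176 and 185 CPM against 65.4 and 66.7 in the starved KO-labelled pair, a called difference of -1.45 ± 0.04. The level of Kdm3a in fed cells thus does not show a knockout, and these libraries are called KO-labelled throughout. Counts of 4 Y-linked genes (Uty, Kdm5d, Eif2s3y, Ddx3y) ran from 296 to 1251 per WT library and from 0 to 2 per KO-labelled one, and the X-inactivation RNA Xist stood at 0.939 to 1.54 against 869 to 1370 CPM. Sex and genotype therefore cannot be told apart, which bears on every comparison of genotypes and most directly on the X-linked members Pgk1 and G6pdx. Of 12 fibroblast markers, 11 or 12 had at least 1 CPM in each group, with a summed level of 20307 to 21895 CPM in WT and 11000 to 13377 CPM in KO-labelled libraries. The sums hide large moves of single markers both ways. With starvation in WT, mean Col1a2 went from 6110 to 367 CPM and Col1a1 from 4662 to 247 CPM. Vim went from 4397 to 11359 CPM and Fn1 from 3557 to 8086 CPM. Fed WT and fed KO-labelled means were 6110 and 264 CPM for Col1a2, 432 and 6.57 CPM for Postn, but 2.41 and 51.4 CPM for Dcn. Markers of cartilage and bone summed to 299 to 310 CPM in fed WT, 117 to 121 CPM in starved WT and 12.5 to 14.9 CPM in KO-labelled libraries, and their part in the results was not tested. Endothelial markers summed to 2.39 to 2.56 CPM in fed WT and 52.9 to 55.0 CPM in starved WT, nearly all of it Kdr (mean 53.8 CPM in starved WT), with Tie1, Emcn and Cldn5 at 0 counts in every library. Macrophage and blood markers summed to 21.5 to 22.1 CPM in fed and 53.3 to 54.3 CPM in starved KO-labelled libraries. There Cd68 went from a mean of 3.49 to 40.8 CPM and Csf1r from 0.418 to 6.23 CPM. Cd14, the highest of the list in fed KO-labelled libraries, went from 17.4 to 6.29 CPM, and Lyz2 from 0.497 to 0.437 CPM. Ptprc, Emr1 and Hbb-b1 had 0 counts. Epithelial markers, mostly Krt19, summed to 21.4 to 25.6 CPM in WT and 2.33 to 4.50 CPM in KO-labelled libraries. Adipocyte markers summed to 17.1 to 18.0 CPM (fed) and 37.6 to 40.9 CPM (starved) in WT libraries and to 65.9 to 66.5 CPM (fed) and 43.7 to 46.1 CPM (starved) in KO-labelled libraries, with Plin1, Cidec, Lep and Cfd at 0 counts. The part of these lists in the results was not tested either. In bulk RNA, fewer cells of a type and less RNA per cell cannot be told apart.

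Starvation raised 18 and lowered 12 of the 36 tested members in WT cells, against 36.7% of all tested genes called higher and 44.8% called lower (81.6% either way). In KO-labelled cells it raised 14 and lowered 16, against 39.4% and 40.3% of all genes (79.7% either way). A gene was called where the adjusted p of edgeR's quasi-likelihood test, run with TMM scaling between libraries, was below 0.05. Changes over 2-fold were fewer: 5 members rose and 5 fell by that much in WT, against 15% and 27.4% of all genes, and 3 rose and 2 fell in KO-labelled cells, against 13.2% and 20%. With so many genes called, the number of called members is close to the background and says little, so the sizes below carry the account. The median log2 change over the members was 0.10 in WT and -0.06 in KO-labelled cells, beside -0.17 and -0.02 over all tested genes. Scaling by library totals in place of TMM moved the median of all genes by -0.46 in WT and -0.26 in KO-labelled cells and changed the split of members to 10 higher and 20 lower in both. Calls were compared in 4 settings: TMM, library totals, DESeq2 size factors in edgeR and the DESeq2 Wald test. The last 2 share a scaling and differ in the test. The same 10 members rose in WT under all 4 settings: Slc2a1, Hk2, Gpi1, Pfkl, Aldoa, Eno2, Rpe, Tkt, Taldo1 and Pck2. Those that fell under all 4 were Slc2a3, Pfkm, Aldoc, Tpi1, Pfkfb4, Pgam1, G6pdx, Pgd, Pcx and Pygb. In KO-labelled cells Slc2a1, Slc2a8, Hk2, Aldoa, Pfkfb2, Eno2, Rpe, Tkt, Pck2 and Pgm1 rose under all 4, and all 16 members called lower kept that call. In that comparison the other scalings moved all genes downward (median -0.26 with library totals and -0.03 with DESeq2 size factors). Lower calls could thus hardly be lost to the scaling, and only the higher ones were put at risk by it.

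**Figure D1:**
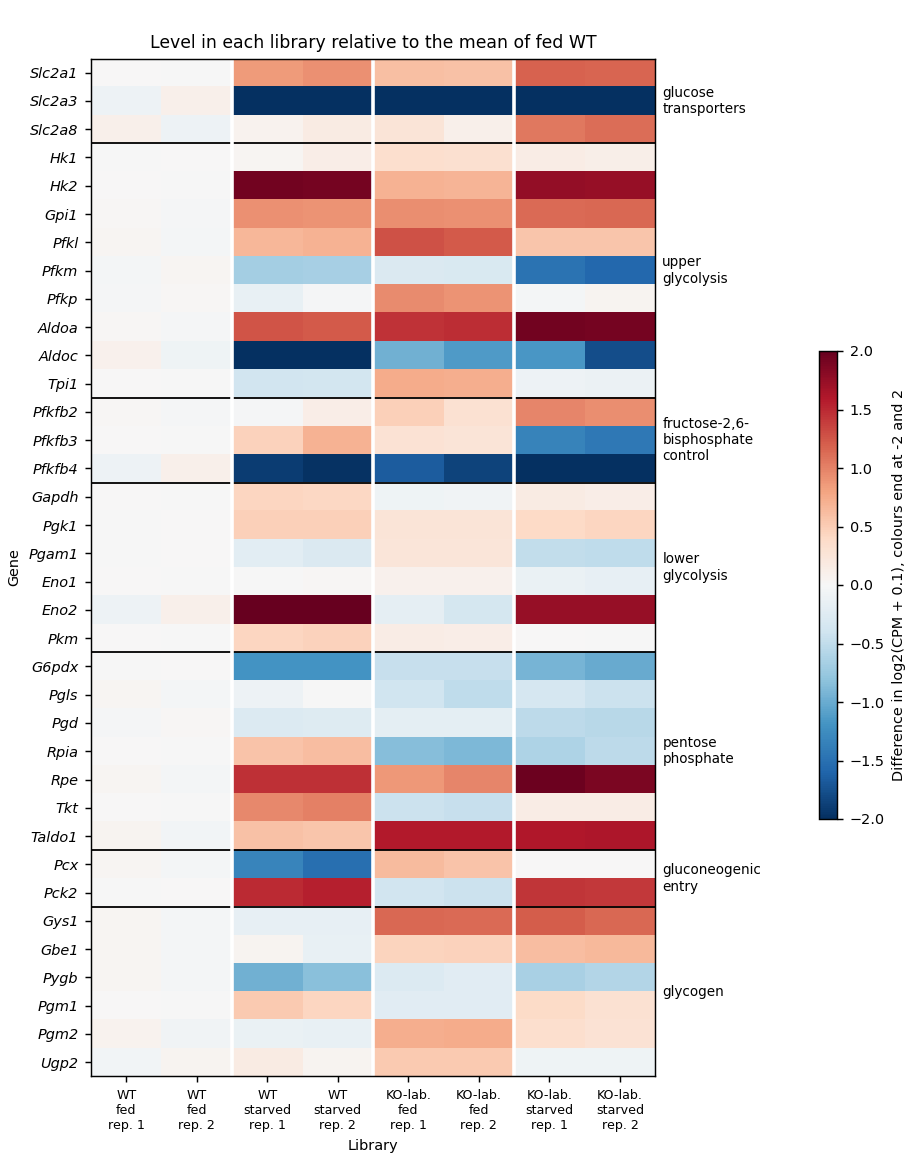
Heat map of the 36 tested members (rows, grouped by role) in the 8 libraries (columns; KO-lab., KO-labelled), coloured by the difference in log2(CPM + 0.1) from the mean of the fed WT libraries. Replicate columns look alike, Hk2, Eno2 and Pck2 are red in both starved groups, and Gys1 and Taldo1 are red in all 4 KO-labelled libraries.

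Among the transporters, Slc2a1, which encodes the widespread basal transporter GLUT1, rose in both genotypes. It stood at 99.0 and 97.8 CPM (fed) and 178 and 186 CPM (starved) in WT libraries, and 149 and 148 CPM (fed) and 223 and 221 CPM (starved) in KO-labelled libraries. No pair of groups overlapped, and the level climbed in the order fed WT, fed KO-labelled, starved WT, starved KO-labelled. The log2 change with starvation was 0.89 ± 0.04 (SE; edgeR adjusted p = 7.8e-16) in WT and 0.58 ± 0.03 (edgeR adjusted p = 5.8e-13) in KO-labelled cells. Slc2a3, the gene of the high-affinity transporter GLUT3, was highest in fed WT libraries, at 4.86 and 5.60 CPM. Starved WT libraries had 0.461 and 0.606 CPM, and KO-labelled libraries 0.324 and 0.338 CPM (fed) and 0.421 and 0.170 CPM (starved), where counts were few. Counts in fed WT exceeded those in starved WT 9.79-fold (95% Clopper-Pearson interval 6.93 to 14.2, counting error only) and those in fed KO-labelled libraries 15.8-fold (11.3 to 22.8). Slc2a8, which encodes the intracellular transporter GLUT8, ranged from 7.35 to 9.46 CPM in 6 libraries and reached 16.6 and 17.3 CPM in starved KO-labelled cells, a rise of 0.91 ± 0.10, whereas its WT change of 0.11 ± 0.12 was not called. Per kilobase of transcript, Slc2a1 made up 85.6% (fed) and 93.0% (starved) of the level of these 3 transporters in WT and 91.3% and 89.4% in KO-labelled libraries. Transporter genes that are not members, Slc2a6 among them, are outside these shares. Mean Slc2a6 was 1.08 (fed) and 10.6 CPM (starved) in WT and 3.36 and 81.4 CPM in KO-labelled libraries.

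In upper glycolysis, Hk2 had the largest rise in both genotypes. Hk2 encodes an inducible hexokinase of growing and insulin-responsive cells that binds mitochondria. It stood at 33.1 and 32.5 CPM (fed) and 125 and 124 CPM (starved) in WT libraries, and 53.2 and 52.6 CPM (fed) and 112 and 110 CPM (starved) in KO-labelled libraries. The groups did not overlap, and starvation raised Hk2 3.78-fold in WT (log2 1.92 ± 0.04, edgeR adjusted p = 4.9e-20) and 2.09-fold in KO-labelled cells (1.07 ± 0.04, edgeR adjusted p = 3.8e-16). Hk1, the constitutive hexokinase gene, changed little: 208 and 211 CPM (fed) and 215 and 230 CPM (starved) in WT libraries, and 265 and 263 CPM (fed) and 233 and 228 CPM (starved) in KO-labelled libraries. Its change of 0.09 ± 0.03 in WT was called but became -0.37 with library totals, and it fell by 0.20 in KO-labelled cells. Within the pair, the Hk2 share per kilobase went from 10.8% ± 0.2 (SD, n = 2) to 30.2% ± 1.1 in WT and from 13.5% ± 0.03 to 27.2% ± 0.007 in KO-labelled cells. These shares are ratios within a library and do not depend on the scaling between libraries.

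Hk2 was 1 of 3 members, with Eno2 and Pck2, that rose more than 2-fold in both genotypes, so the bases just upstream of their start sites are shown. The windows hold the 250 bases before the annotated start, from RefSeq on GRCm38.p6, 5′ to 3′ on the strand of the gene, without the transcribed bases. They lie at chr6:82774455-82774704 (minus strand) for Hk2, chr6:124769674-124769923 (minus strand) for Eno2 and chr14:55540016-55540265 (plus strand) for Pck2. Capitals mark matches on either strand to ACGTG, the core of hypoxia response elements, or to TGATGNAA, a core of amino acid response elements. A match is a description of the letters, not a bound site.
Hk2: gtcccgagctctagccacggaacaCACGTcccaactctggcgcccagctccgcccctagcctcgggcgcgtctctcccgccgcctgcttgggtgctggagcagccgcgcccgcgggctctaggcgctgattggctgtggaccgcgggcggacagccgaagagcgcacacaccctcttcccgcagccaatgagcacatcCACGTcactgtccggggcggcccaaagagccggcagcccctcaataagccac
Eno2: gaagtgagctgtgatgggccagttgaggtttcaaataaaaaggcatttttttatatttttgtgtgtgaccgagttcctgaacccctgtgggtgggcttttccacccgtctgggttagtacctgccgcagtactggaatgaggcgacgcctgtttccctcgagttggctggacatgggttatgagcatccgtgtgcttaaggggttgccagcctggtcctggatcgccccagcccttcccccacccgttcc
Pck2: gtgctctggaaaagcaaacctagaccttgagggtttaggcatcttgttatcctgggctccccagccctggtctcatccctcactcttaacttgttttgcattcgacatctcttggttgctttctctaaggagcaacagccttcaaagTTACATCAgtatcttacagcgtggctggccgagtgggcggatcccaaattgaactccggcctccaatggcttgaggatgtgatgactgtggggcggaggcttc
Hk2 has the ACGTG core at 226 and 52 bases before the start, both read as CACGT on this strand. Pck2 has the TGATGNAA core at 103 bases before the start, on the other strand. In the Eno2 window neither motif was matched, which says only that these letters are not in it. Over all 32851 such windows in the table, ACGTG occurs in 16.6%, CACGTG (the E-box, which contains ACGTG) in 6.02% and TGATGNAA in 3.45%. Promoters were matched for 36 members (52 windows). Of these windows 36.5%, in 15 members, held ACGTG, 7.69%, in 4 members, held CACGTG and 1.92%, in Pck2 alone, held TGATGNAA. For most of the 52 windows the counted transcript did not begin exactly where the window ends, and some windows of the same gene overlap. The shares in members were not tested against those in all windows.

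The 3 phosphofructokinase genes encode the isozymes of the committed step. Pfkl, named for liver, stood at 117 and 110 CPM (fed) and 180 and 183 CPM (starved) in WT libraries, and 273 and 265 CPM (fed) and 166 and 165 CPM (starved) in KO-labelled libraries. It moved in opposite directions in the 2 genotypes, by 0.68 ± 0.04 (edgeR adjusted p = 1.5e-13) in WT and -0.70 ± 0.03 (edgeR adjusted p = 4.3e-14) in KO-labelled cells, and did so under every scaling. Pfkm, named for muscle, fell in both, from 94.7 and 99.1 to 60.3 and 60.9 CPM in WT and from 78.9 and 78.7 to 34.6 and 32.4 CPM in KO-labelled libraries. The log2 changes were -0.68 ± 0.05 and -1.23 ± 0.05. Pfkp, named for platelets, was at 28.0 and 29.0 CPM in fed WT and 25.6 and 28.1 CPM in starved WT, which overlapped. In KO-labelled libraries Pfkp went from 55.1 and 53.2 to 27.7 and 29.7 CPM, a fall of 0.91 ± 0.06 on the log2 scale. Summed per kilobase, the 3 genes went from 71.6 ± 0.06 to 76.6 ± 1.1 CPM per kb (SD, n = 2) in WT and from 113 ± 1.8 to 63.2 ± 0.33 CPM per kb in KO-labelled cells. The Pfkl share of that sum was 42.3% in fed WT and lay between 63.4% and 70.2% in the other 3 groups, while the Pfkm share was 48.1% in fed WT and 18.8% to 28.1% elsewhere.

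**Figure D2:**
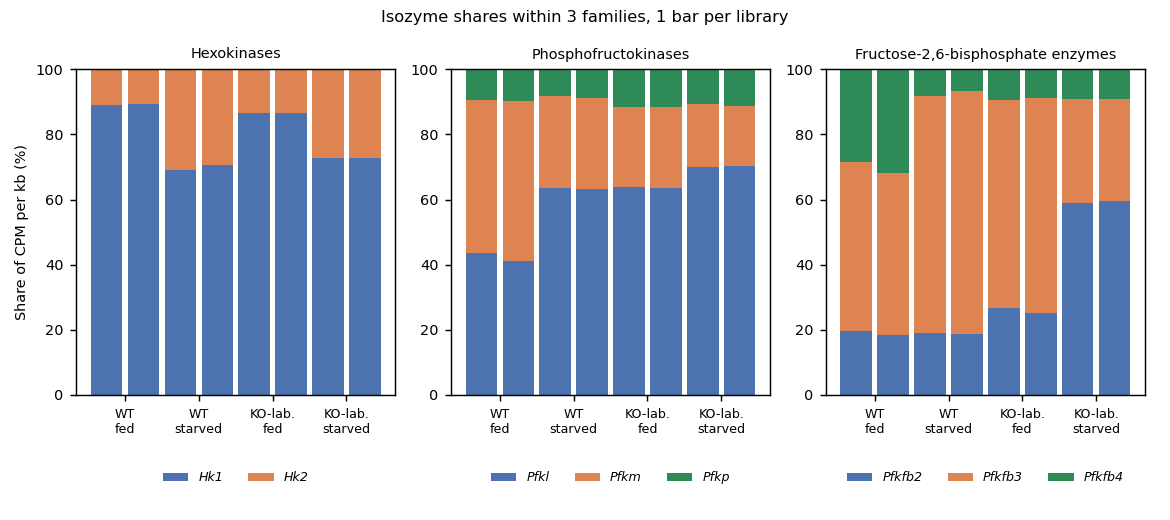
Stacked bars of the share (% of CPM per kilobase) of each isozyme in the 2 hexokinases, the 3 phosphofructokinases and the 3 fructose-2,6-bisphosphate enzymes, 1 bar per library in 4 groups (KO-lab., KO-labelled). The Hk2 share is near 30% in starved WT and 27% in starved KO-labelled libraries. Pfkfb2 takes 59.3% of the sum of its 3 genes in starved KO-labelled libraries.

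Of the aldolase genes, which split fructose-1,6-bisphosphate, Aldoa rose in both genotypes and was high in every KO-labelled library. It stood at 340 and 328 CPM (fed) and 797 and 781 CPM (starved) in WT libraries, and 914 and 927 CPM (fed) and 1272 and 1263 CPM (starved) in KO-labelled libraries. Its rise was 2.36-fold in WT (1.24 ± 0.03) and 1.38-fold in KO-labelled cells (0.46 ± 0.03), with no overlap of groups. Aldoc, the brain form, was barely present, at 0.880 and 0.766 CPM (fed) and 0.0614 and 0 CPM (starved) in WT libraries, and 0.373 and 0.318 CPM (fed) and 0.310 and 0.170 CPM (starved) in KO-labelled libraries. Fed WT exceeded starved WT 27.0-fold (95% interval 7.20 to 227), a ratio that rests on 70 counts against 2. Gpi1, the isomerase after hexokinase, rose by 0.91 ± 0.03 in WT and by 0.21 ± 0.03 in KO-labelled cells, the latter becoming -0.05 with library totals. Its lowest library had 211 CPM in fed WT and its highest 473 CPM in starved KO-labelled cells. Tpi1, which interconverts the triose phosphates, fell by 0.38 on the log2 scale in WT and by 0.84 in KO-labelled cells, from a range of 548 to 550 CPM in fed WT and 906 to 916 CPM in fed KO-labelled libraries.

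Pfkfb2, Pfkfb3 and Pfkfb4 encode bifunctional enzymes that make and break down fructose-2,6-bisphosphate, and the 3 genes moved apart. Pfkfb3, the form with the strongest kinase activity, stood at 23.7 and 23.4 CPM (fed) and 32.5 and 38.3 CPM (starved) in WT libraries, and 28.8 and 28.2 CPM (fed) and 9.22 and 8.69 CPM (starved) in KO-labelled libraries. It rose by 0.59 ± 0.08 (edgeR adjusted p = 4.3e-07) in WT, where the call ended with library totals, and fell 3.19-fold (-1.67 ± 0.08, edgeR adjusted p = 5.1e-14) in KO-labelled cells. Pfkfb4 was highest in fed WT, with 20.3 and 23.4 CPM, against 5.80 and 5.48 CPM in starved WT and 6.82 and 6.00 CPM (fed) and 4.21 and 4.04 CPM (starved) in KO-labelled libraries. Its falls were -1.95 ± 0.12 and -0.64 ± 0.13. Pfkfb2, the heart form, rose in KO-labelled cells (0.56 ± 0.09), from 13.9 and 15.6 to 21.4 and 22.1 CPM, while the WT change of 0.06 ± 0.10 was not called. Pfkfb2 rows of different transcripts held unequal counts, the lowest being 44.8% of the highest, so its level depends on the row chosen. Within these 3 genes, Pfkfb3 went from 51.0% to 73.6% of the level per kilobase in WT but from 64.8% to 31.5% in KO-labelled cells. Pfkfb2 stayed at 18.9% in WT and went from 26.0% to 59.3% in KO-labelled cells. Pfkfb1, not a member, is outside these shares. Its means were 8.51 (fed) and 0.351 CPM (starved) in WT and 3.70 and 0.385 CPM in KO-labelled libraries.

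In lower glycolysis, Eno2 had the largest change. It encodes the gamma subunit of enolase, best known from neurons, and stood at 12.4 and 14.2 CPM (fed) and 65.7 and 63.7 CPM (starved) in WT libraries, and 11.7 and 10.4 CPM (fed) and 44.7 and 44.9 CPM (starved) in KO-labelled libraries. The rise was 4.86-fold in WT (2.28 ± 0.07, edgeR adjusted p = 1.3e-17) and 4.03-fold in KO-labelled cells (2.01 ± 0.07, edgeR adjusted p = 1.2e-16). Fed and starved libraries did not overlap in either genotype. Per kilobase Eno2 remained a small part of the sum of Eno1 and Eno2. Its share went from 0.613% to 2.90% in WT and from 0.480% to 2.25% in KO-labelled cells, since Eno1, the main enolase gene, ranged from 1401 to 1666 CPM. Eno3, an enolase gene that is not a member, is outside these shares. Mean Eno3 was 64.98 (fed) and 35.74 CPM (starved) in WT and 25.03 and 14.32 CPM in KO-labelled libraries. Of 8 neural and glial markers, Olig2, Rbfox3 and Snap25 had 0 counts in every library, and the list summed to 74.6 to 74.9 CPM in fed WT and 40.4 to 42.5 CPM in starved WT, most of it Map2 (means of 56.9 and 35.1 CPM). In KO-labelled libraries that sum was 32.7 CPM in both fed libraries and 49.1 to 50.7 CPM in the starved ones, and its part in the Eno2 change was not tested in either genotype.

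Pkm, the pyruvate kinase gene that ends glycolysis, stood at 3110 and 3050 CPM (fed) and 4143 and 4223 CPM (starved) in WT libraries, and 3396 and 3393 CPM (fed) and 3113 and 3064 CPM (starved) in KO-labelled libraries. Its change was 0.44 ± 0.02 in WT, which became -0.01 with library totals, and -0.14 ± 0.02 in KO-labelled cells. Gapdh, Pgk1 and Pgam1 catalyse the steps from glyceraldehyde-3-phosphate to 2-phosphoglycerate. Gapdh (0.42 in WT, 0.22 in KO-labelled) and Pgk1 (0.47, 0.16) were called higher in both genotypes, but with library totals Gapdh stood at -0.03 in each and the KO-labelled value of Pgk1 at -0.09. Pgam1 fell by 0.25 on the log2 scale in WT and by 0.74 in KO-labelled cells. Eno1 did not pass the test in WT (0.01 ± 0.02) and fell by 0.24 in KO-labelled cells, while with library totals its WT value was -0.45. The abundant genes of this branch share sequence with pseudogenes, among which the counting could split reads: 75 for Gapdh, 4 for Pgk1, 2 for Eno1 and 1 each for Pgam1 and Pkm, as well as 1 each for Gpi1 and Tpi1 of the upper branch.

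**Figure D3:**
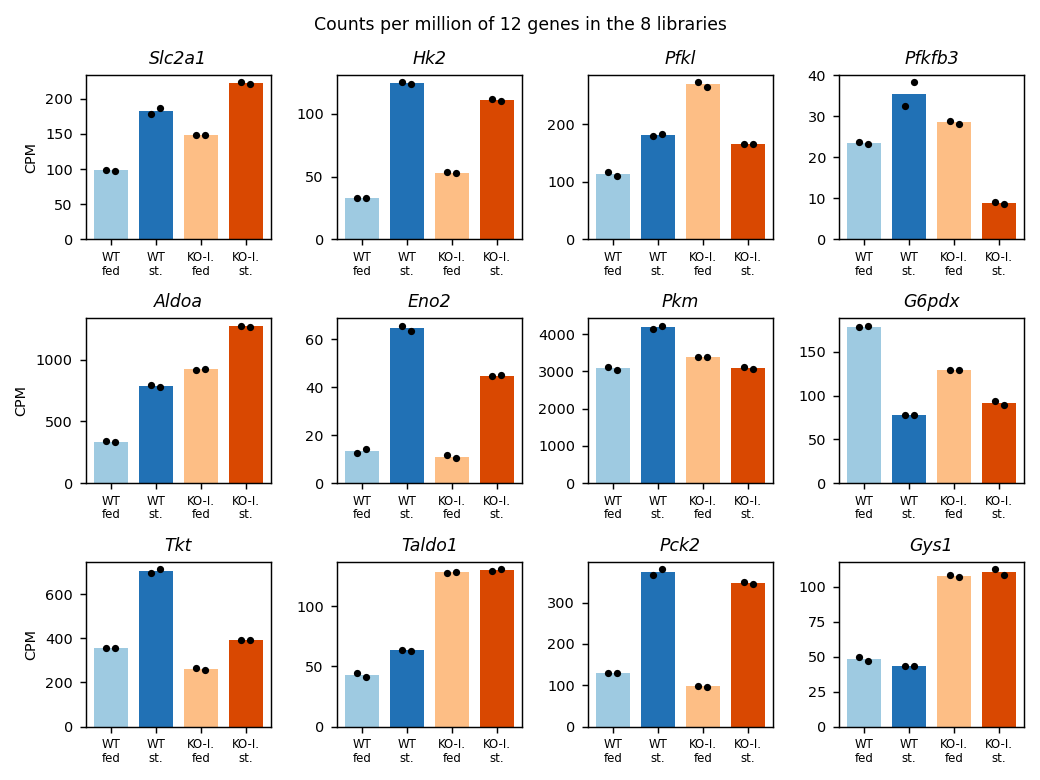
Bars give the mean CPM of 2 libraries, with each library as a point, for 12 members in fed and starved (st.) WT and KO-labelled (KO-l.) cells; every axis starts at 0. Hk2, Eno2 and Pck2 rise in both genotypes, Pfkl and Pfkfb3 rise in WT and fall in KO-labelled cells, and Gys1 and Taldo1 differ mainly by genotype.

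In the pentose phosphate pathway, G6pdx, the X-linked gene of glucose-6-phosphate dehydrogenase that opens the oxidative arm, stood at 178 and 180 CPM (fed) and 78.1 and 77.6 CPM (starved) in WT libraries, and 130 and 129 CPM (fed) and 93.2 and 88.8 CPM (starved) in KO-labelled libraries. It fell 2.30-fold in WT (-1.20 ± 0.04, edgeR adjusted p = 2.0e-17) and 1.42-fold in KO-labelled cells (-0.51 ± 0.04). Pgd, the second NADPH-forming dehydrogenase of the oxidative arm, fell by 0.26 on the log2 scale in WT and by 0.34 in KO-labelled cells. Pgls, the lactonase between G6pdx and Pgd, was not called in either genotype (-0.06 ± 0.05 and 0.07 ± 0.05).

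The 4 genes of the non-oxidative arm, which interconverts pentoses and glycolytic sugars, were called higher in WT. Rpe, the pentose epimerase gene, stood at 19.2 and 18.2 CPM (fed) and 52.0 and 51.6 CPM (starved) in WT libraries, and 34.3 and 36.9 CPM (fed) and 73.0 and 69.1 CPM (starved) in KO-labelled libraries. It rose by 1.47 ± 0.06 and 1.00 ± 0.05, with no overlap. Tkt, the transketolase gene, ranged from 257 CPM in fed KO-labelled to 711 CPM in starved WT libraries and rose by 0.99 ± 0.03 and 0.59 ± 0.03. Rpia, the isomerase that forms ribose-5-phosphate, stood at 23.6 and 23.5 CPM (fed) and 35.2 and 36.0 CPM (starved) in WT libraries, and 13.0 and 12.5 CPM (fed) and 15.3 and 16.4 CPM (starved) in KO-labelled libraries. Every KO-labelled library was below every WT library for Rpia, and its rises of 0.60 ± 0.07 and 0.32 ± 0.08 both ended as calls with library totals. Taldo1, the transaldolase gene, stood at 44.3 and 40.9 CPM (fed) and 63.8 and 62.7 CPM (starved) in WT libraries, and 127 and 128 CPM (fed) and 129 and 130 CPM (starved) in KO-labelled libraries. It rose in WT (0.57 ± 0.05) and was not called in KO-labelled cells (0.02 ± 0.04), although with library totals it was called lower there (-0.23).

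Gluconeogenic entry is represented by Pcx, which encodes the mitochondrial enzyme that carboxylates pyruvate to oxaloacetate, and Pck2, which encodes the mitochondrial enzyme that turns oxaloacetate into phosphoenolpyruvate. They moved in opposite directions. Pck2 stood at 129 and 130 CPM (fed) and 366 and 380 CPM (starved) in WT libraries, and 99.2 and 95.8 CPM (fed) and 350 and 345 CPM (starved) in KO-labelled libraries. It rose 2.88-fold in WT (1.53 ± 0.03, edgeR adjusted p = 2.4e-20) and 3.56-fold in KO-labelled cells (1.83 ± 0.03, edgeR adjusted p = 1.8e-21). Pcx fell 2.67-fold in WT, from 38.5 and 36.2 to 14.9 and 13.1 CPM, and 1.51-fold in KO-labelled cells, from 58.1 and 55.5 to 37.7 and 37.3 CPM. The log2 changes of Pcx were -1.42 ± 0.07 and -0.60 ± 0.06, and starved KO-labelled libraries stood near fed WT.

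Among genes of glycogen turnover, Gys1 differed mainly between genotypes and Pygb between fed and starved cells. Gys1, the glycogen synthase of most tissues other than liver, stood at 50.05 and 47.1 CPM (fed) and 43.4 and 43.2 CPM (starved) in WT libraries, and 108 and 107 CPM (fed) and 112 and 108 CPM (starved) in KO-labelled libraries. KO-labelled cells had 2.21-fold more when fed (1.15 ± 0.04, edgeR adjusted p = 9.6e-16) and 2.55-fold more when starved (1.35 ± 0.05, edgeR adjusted p = 8.1e-17). Starvation moved Gys1 by -0.17 ± 0.05 in WT, a call that ended with DESeq2 size factors (-0.10) and without either starved WT library (-0.10 without replicate 1 and -0.09 without replicate 2), and by 0.04 ± 0.04 in KO-labelled cells, which was not called. Pygb, the brain form of glycogen phosphorylase that releases glucose units, stood at 102 and 96.2 CPM (fed) and 51.0 and 55.3 CPM (starved) in WT libraries, and 81.6 and 84.7 CPM (fed) and 63.4 and 65.8 CPM (starved) in KO-labelled libraries. It fell by 0.90 on the log2 scale in WT and by 0.36 in KO-labelled cells. Pygl, left out by the filter, had 14 and 8 counts (fed) and 0 and 0 counts (starved) in WT libraries, and 12 and 4 counts (fed) and 0 and 4 counts (starved) in KO-labelled libraries. Fed WT was at least 2.83-fold higher than starved WT, taking 3 counts per library as the floor, and fed KO-labelled exceeded starved KO-labelled libraries 3.50-fold (95% interval 1.13 to 14.4).

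Gbe1, the branching enzyme gene, ranged from 6.39 to 7.31 CPM in WT and from 9.64 to 11.1 CPM in KO-labelled libraries and was not called with starvation in either (-0.04 ± 0.12 and 0.18 ± 0.10). Ugp2, which makes the UDP-glucose that glycogen synthase uses, changed by 0.11 ± 0.04 in WT, or -0.34 with library totals, and fell by 0.62 in KO-labelled cells. The phosphoglucomutase genes, which link glucose-1-phosphate and glucose-6-phosphate, have 2 rows. The row under the symbol Pgm1 was called higher in both (0.48 and 0.57), with the WT call ending under library totals, and the row under Pgm2 was called lower in both (-0.15 and -0.42). The WT call of Pgm2 ended with DESeq2 size factors and with the DESeq2 Wald test (-0.08 in both), and without fed WT replicate 1 or either starved WT library (-0.08 to -0.06). The symbols are those of the count table, and the RefSeq table used here names these 2 transcripts the other way round.

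By branch, the median log2 change with starvation was 0.09 for upper glycolysis, 0.43 for lower glycolysis, 0.57 for the pentose phosphate pathway and -0.09 for glycogen genes in WT. With library totals these WT medians were -0.37, -0.02, 0.11 and -0.55, and the sign of 2 changed. That scaling moves all genes of a comparison by nearly the same amount, so the order of the 4 branches could hardly change. In KO-labelled cells the medians were -0.55, 0.01, 0.07 and -0.16 in the same order of branches, or -0.80, -0.24, -0.19 and -0.42 with library totals. Each branch held members that moved both ways in WT: upper glycolysis had 5 higher and 3 lower of 9, lower glycolysis 4 and 1 of 6, the pentose phosphate pathway 4 and 2 of 7 and glycogen 2 and 3 of 6. In KO-labelled cells the counts were 3 and 5, 3 and 3, 3 and 2, and 1 and 3. No test of one branch against another was made.

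**Figure D4:**
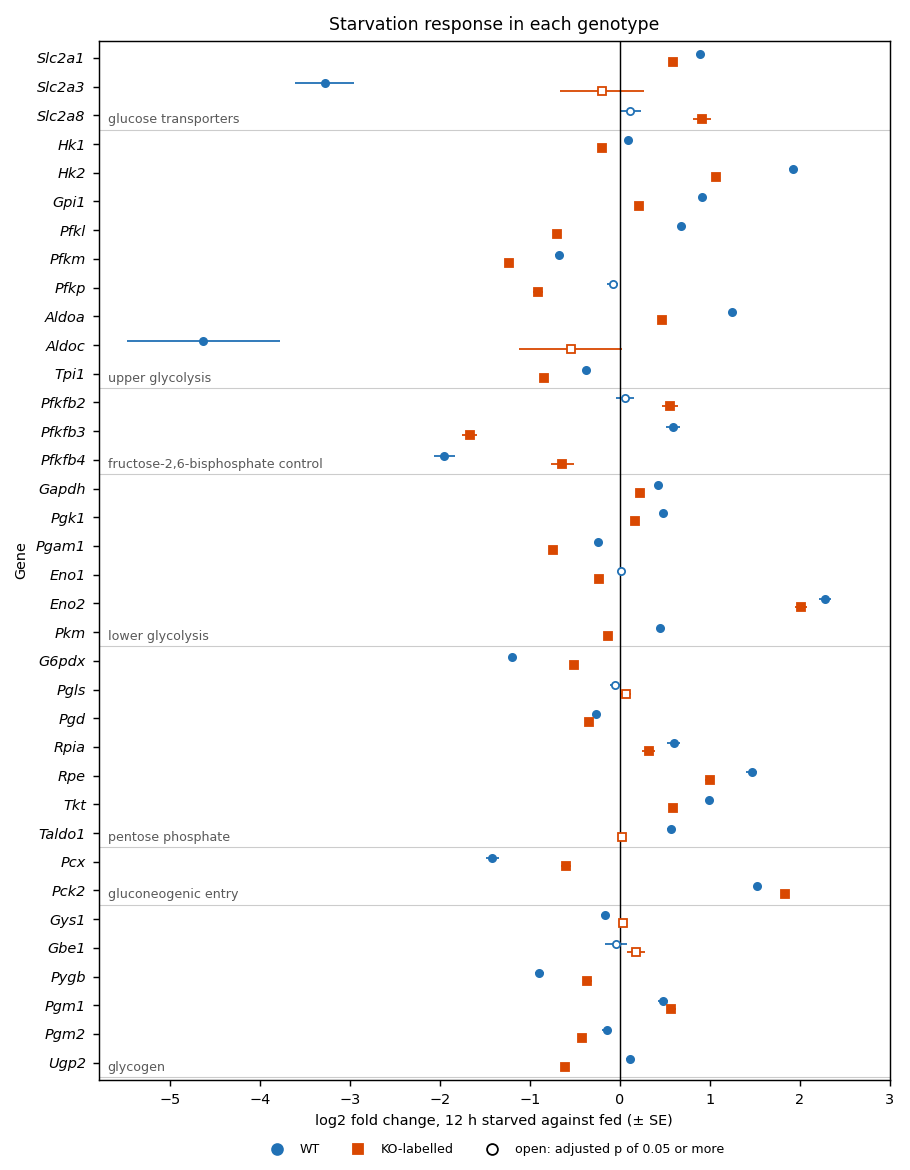
Log2 fold change (± SE) between starved and fed cells for the 36 tested members, grouped by role, in WT (circles) and KO-labelled cells (squares), with open symbols where the adjusted p was 0.05 or more. In upper glycolysis the KO-labelled square lies left of the WT circle for 8 of 9 genes, the exception being Aldoc, and in lower glycolysis for 6 of 6.

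The difference between the 2 starvation responses, tested as an interaction, was called for 32 members, 10 in the direction of a higher change in KO-labelled cells and 22 of a lower one, against 34.1% and 30.4% of all genes (64.5% either way). With library totals the split was 14 and 15. Differences over 2-fold numbered 3 higher and 2 lower, against 15.4% and 6.57% of all genes. In upper glycolysis 8 of 9 genes had the lower change in KO-labelled cells, with a median difference of -0.70. Of these, 7 held under all 4 settings named above (all but Hk1). Pfkl differed by -1.38 ± 0.05 (edgeR adjusted p = 2.3e-15), Hk2 by -0.85 ± 0.06, Pfkp by -0.83 ± 0.09 and Aldoa by -0.78 ± 0.04. Pfkfb3 had the largest difference in this direction, -2.26 ± 0.11 (edgeR adjusted p = 3.6e-13). In lower glycolysis all 6 genes had a lower change in KO-labelled cells (median -0.29), but with library totals only Pgk1, Pgam1 and Pkm were still called. Differences of the opposite sign were seen for Slc2a3 (3.09 ± 0.60), Aldoc (4.09 ± 1.13, on few counts), Pfkfb4 (1.31 ± 0.18), Pcx (0.82 ± 0.09), Slc2a8 (0.80 ± 0.15) and G6pdx (0.69 ± 0.05). Except for Slc2a8, these had fallen in WT starvation. Pygb (0.53), Pfkfb2 (0.50), Pck2 (0.30) and Gys1 (0.20) also differed in this direction. In WT starvation Pygb and Gys1 were called lower, Pfkfb2 was not called and Pck2 was called higher. Of the members, 12 were called higher in both genotypes, 9 lower in both, 5 (Hk1, Pfkl, Pfkfb3, Pkm and Ugp2) higher in WT and lower in KO-labelled cells, and none the other way. Of all genes tested, 28.2% were called higher in both, 30.2% lower in both, 4.21% higher in WT and lower in KO-labelled cells, and 5.38% the other way. With library totals the opposite pairs were Pfkl and Taldo1, higher in WT and lower in KO-labelled cells, and Slc2a8 and Pfkfb2, lower in WT and higher in KO-labelled cells.

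In fed cells, 21 members were higher and 14 lower in KO-labelled than in WT libraries, against 34.5% and 39.8% of all genes (74.4% either way), and 4 were over 2-fold higher and 3 over 2-fold lower, against 12.5% and 11.2%. The median difference over the members was 0.25, beside -0.06 over all tested genes. Upper glycolysis had 7 higher and 2 lower of 9 (median 0.73), led by Aldoa (2.76-fold, 1.46 ± 0.03) and Pfkl (2.38-fold, 1.25 ± 0.04), with Pfkm (-0.30 ± 0.04) and Aldoc (-1.24 ± 0.50) lower. The Aldoc call ended without any 1 of the 4 fed libraries (adjusted p 0.088 to 0.16). The pentose phosphate pathway had 2 higher and 5 lower of 7 (median -0.45): Taldo1 was 3.00-fold and Rpe 1.90-fold higher, and G6pdx, Pgls, Pgd, Rpia and Tkt were lower by 0.19 to 0.88 on the log2 scale. Of the glycogen genes 4 were higher and 2 lower of 6 (median 0.49), and of lower glycolysis 4 were higher and 2 lower of 6 (median 0.11). All 21 members called higher kept that call under the 4 settings named above, and 10 of the 14 called lower did. Here the other scalings moved all genes upward (median 0.12 with library totals and 0.04 with DESeq2 size factors). Higher calls could thus hardly be lost to the scaling, and only the lower ones were put at risk by it.

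In starved cells, 15 members were higher and 18 lower in KO-labelled libraries, against 41.9% and 37.7% of all genes (79.6% either way), and with library totals 25 were higher and 6 lower. Over 2-fold, 4 were higher and 2 lower, against 21.8% and 12.5%. The median over the members was -0.08, beside 0.07 over all genes, and became 0.24 beside 0.39 with library totals. All 6 genes of lower glycolysis were called lower (median -0.26). Only Eno2 (-0.53 ± 0.06) and Pkm (-0.44 ± 0.02) were lower under all 4 settings named above. The largest falls were in Pfkfb3 (3.96-fold, -1.98 ± 0.08) and Rpia (2.24-fold, -1.16 ± 0.07), and Tkt (-0.84 ± 0.03) and Pfkm (-0.85 ± 0.05) were lower as well. Pcx (2.69-fold, 1.43 ± 0.07), Gys1 (1.35 ± 0.05) and Taldo1 (1.04 ± 0.04) were higher. The other member over 2-fold higher was Aldoc (2.85 ± 1.03), on 23 against 2 counts, a ratio of 7.69 (95% interval 1.90 to 67.3), and its call ended without starved WT replicate 2 (1.83) or starved KO-labelled replicate 1 (2.38). Pfkl, Hk2 and Pck2, at -0.13, -0.16 and -0.10, became higher with library totals (0.19, 0.15 and 0.21).

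Of the members, 15 overlap an annotated gene on the opposite strand, and their counts may include its reads, since the use of strand is not given in the sources used here. For 10 of them the other gene has a row in the count table: Aldoa with Fam57b, G6pdx with Ikbkg, Gapdh with Iffo1, Gys1 with Ruvbl2, Pfkfb2 with Yod1, Pfkm with Senp1, Pfkp with Pitrm1, Pgm2 with Itgb3bp, Rpe with Kansl1l and Tpi1 with Spsb2. For the other 5, Gpi1 with Gm26762, Hk1 with Hk1os, Pck2 with Gm10876, Slc2a1 with Gm12868 and Ugp2 with Gm12043, it has none.

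Among 63 further genes of the same pathways found in the table, 41 were tested. Starvation raised 12 and lowered 23 of them in WT (median -0.86), and raised 14 and lowered 15 in KO-labelled cells (median 0.05). Over all genes tested these shares were 36.7% higher and 44.8% lower in WT (median -0.17) and 39.4% and 40.3% in KO-labelled cells (median -0.02). The difference of responses was called for 20 with a higher and 7 with a lower change in KO-labelled cells, against the 34.1% and 30.4% of all genes given above. Stbd1, which anchors glycogen to membranes, had the largest rise in KO-labelled cells, from 3.16 and 3.60 to 91.7 and 87.4 CPM (4.73 ± 0.08), and went from 9.61 and 8.59 to 66.9 and 70.5 CPM in WT (2.92 ± 0.07). Slc2a6, a lysosomal transporter gene, rose by 4.62 ± 0.11 in KO-labelled cells and by 3.29 ± 0.18 in WT. Pfkfb1, the liver form of the bifunctional enzyme, changed by -4.59 in WT and -3.25 in KO-labelled cells on the log2 scale, and Bpgm, the bisphosphoglycerate mutase gene, by -1.92 and -2.27. In starved WT libraries Ppp1r3d, a glycogen-targeting subunit of protein phosphatase 1, and Slc2a12 had 0 counts. Fed WT was at least 10.2-fold higher for Ppp1r3d and at least 2.83-fold higher for Slc2a12, and Slc2a9 counts were 18.5-fold higher in fed WT (95% interval 3.02 to 762). Slc2a12 had 12 and 10 counts in fed WT libraries and 4 and 0 in fed KO-labelled ones. It thus passed the low-count filter only through fed WT, where it was high, so its fall carries no weight as a test.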

How the data were processed

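RNA was sequenced in 8 libraries, 2 per group. The table that the authors deposited holds raw counts, in whole numbers, for 31055 RefSeq transcript rows. TopHat2 2.0.9, bedtools and mm9 are named in the submitters' processing notes, but strand use and multi-mapping rules are not given there or elsewhere in the labels. A further 4 sample columns matched no label and were not used. Groups and replicate numbers came from the titles. Each symbol took its row with the highest total, since rows of 1 gene mostly repeat reads.

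Counts were tested with edgeR 4.0.16 (R 4.3.3): filterByExpr, TMM, 1 coefficient per group over 8 libraries with 4 residual degrees of freedom, a quasi-likelihood F test, and p-values adjusted by Benjamini-Hochberg over 14418 genes, called below 0.05. SE is the absolute log2 change over the square root of F. CPM uses TMM-adjusted totals (38407520 to 53602289 counts before adjustment), where 3 counts are 0.0486 to 0.0921 CPM. The common biological coefficient of variation was 0.0341. Levels per kilobase use GENCODE transcript lengths. Intervals are 95% Clopper-Pearson, for counting error only. Near copies are other transcripts aligned by blastn 2.17.0+ at 95% identity or more over at least 200 bases. The edgeR test was also run on simulated counts. Few genes were changed in them, whereas most genes were called here, so that run does not bear on the choice of scaling. Values in every library are given for members called with over 2-fold change in any of the 5 comparisons and for Hk1, Hk2, Pfkl, Pfkm, Pfkp, Pkm, G6pdx, Gys1, Pygb, Pygl and Slc2a1, and other pathway genes are named when among the 4 largest called changes over 2-fold per starvation comparison. Eno3 is also named, because the enolase share leaves it out. The members and lists were chosen with earlier results of these data known. Alternatives were library totals, DESeq2 size factors in edgeR, DESeq2 1.42.0, no filter, a minimum of 5 CPM in 2 libraries, summed isoforms, a replicate block and each library left out.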

Additional observations from a re-analysis of the deposited data

Results flagged for a closer look

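The starvation response of 32 members differed between KO-labelled and WT cells by the interaction test, and each is given as the log2 change in KO-labelled minus that in WT. Of the transporters, Slc2a1 differed by -0.31, Slc2a3 by 3.09 and Slc2a8 by 0.80. In upper glycolysis the values were -0.29 for Hk1, -0.85 for Hk2, -0.70 for Gpi1, -1.38 for Pfkl, -0.56 for Pfkm, -0.83 for Pfkp, -0.78 for Aldoa, 4.09 for Aldoc and -0.47 for Tpi1. The fructose-2,6-bisphosphate enzymes gave 0.50 for Pfkfb2, -2.26 for Pfkfb3 and 1.31 for Pfkfb4. In lower glycolysis they were -0.20 for Gapdh, -0.31 for Pgk1, -0.50 for Pgam1, -0.24 for Eno1, -0.27 for Eno2 and -0.58 for Pkm. Pentose phosphate genes gave 0.69 for G6pdx, -0.28 for Rpia, -0.47 for Rpe, -0.39 for Tkt and -0.55 for Taldo1. Pcx differed by 0.82 and Pck2 by 0.30. Of the glycogen genes, Gys1 differed by 0.20, Pygb by 0.53, Pgm2 by -0.28 and Ugp2 by -0.73. Over all tested genes 64.5% had a called difference.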

How the results depend on the processing

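Each comparison was repeated under 15 alternatives. Library totals alone moved counts of members by over 1.5 times: in WT starvation 10 members were higher (18 with TMM) and 20 lower (12), and all genes called higher numbered 3397 (5296). In the starved comparison of genotypes 25 members were higher (15) and 6 lower (18). The share of higher calls among all called genes went from 45.0% to 28.2% in WT starvation, from 49.4% to 37.0% in KO-labelled starvation, from 52.6% to 67.4% between starved genotypes and from 52.9% to 67.0% for the difference of responses.

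Signs turned with library totals as follows, on the log2 scale. In WT starvation Eno1 was -0.45, Gapdh -0.035, Hk1 -0.37, Pfkfb2 -0.40, Pkm -0.015, Slc2a8 -0.34 and Ugp2 -0.34. In KO-labelled starvation Gapdh was -0.033, Gpi1 -0.047, Gys1 -0.22, Pgk1 -0.092, Pgls -0.19 and Taldo1 -0.23. Between fed genotypes Gapdh was 0.041. Between starved genotypes Eno1 was 0.16, Gapdh 0.043, Hk2 0.15, Pck2 0.21, Pfkl 0.19, Pgam1 0.065, Pgd 0.045, Pgk1 0.26, Pgm1 0.18 and Ugp2 0.11. For the difference of responses Gapdh was 0.0017 and Pgd 0.12.

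Leaving out 1 library at a time gave 16 to 19 members higher and 10 to 13 lower in WT starvation, 14 and 16 in KO-labelled starvation, 21 to 22 and 12 to 14 between fed genotypes, 14 to 15 and 16 to 18 between starved genotypes, and 8 to 10 and 20 to 23 for the difference. Calls were lost in this way for 4, 0, 3, 4 and 4 members in that order. In WT starvation Hk1 (0.08), Ugp2 (0.06), Pgm2 (-0.08) and Gys1 (-0.12) lost theirs without fed WT replicate 1, and Pgm2 (-0.08, -0.06) and Gys1 (-0.10, -0.09) also without starved WT replicate 1 or 2. Between fed genotypes Eno2 lost its call without fed WT replicate 2 (-0.16) or fed KO-labelled replicate 2 (-0.19), and Gapdh without either starved WT library (-0.01). Between starved genotypes Aldoc lost it without starved WT replicate 2 (1.83) or starved KO-labelled replicate 1 (2.38), Pck2 (-0.09) and Pgm1 (-0.10) without starved KO-labelled replicate 2, and Pgk1 without 5 of the 8 libraries (-0.05 to -0.03). For the difference Eno2 lost it without replicate 1 of fed WT (-0.17), fed KO-labelled (-0.17) or starved KO-labelled cells (-0.26), Gys1 without either starved WT library (0.08, 0.07), Pfkfb2 without starved WT replicate 1 (0.29), and Rpia without fed WT replicate 2 (-0.27) or replicate 1 of fed (-0.25) or starved KO-labelled cells (-0.22). A lone library was then assumed to vary like the other groups. With the replicate number as a block, 18 members were higher and 12 lower in WT starvation and 10 and 22 for the difference, as without it, and no other member count moved. Same-numbered libraries did not deviate together (correlations -0.03 to 0.02), so no pairing by number was seen. With replicates this alike the check could miss a small shared effect. The labels do not say what a shared number means. Low counts limit Slc2a3, Aldoc and Pygl.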
